A study of Homo sapiens with 12 samples.

Results

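The comparison described here is that of the side population (SP) of A549 cells after exposure to an EpCAM antibody with the SP of untreated cells. It was chosen by sample title and rests on 6 of the 12 arrays of the series, 3 biological replicates in each group. A549 is an established human lung adenocarcinoma line. The untreated group is A549 grown in serum-supplemented medium, and the treated group is the same line after 48 h with a monoclonal antibody at 100 µg/ml. The submitters name the reagent as anti-mouse EpCAM, which leaves unsaid whether mouse is the host that made it or the species it binds, and the controls used here are untreated cells rather than cells given another antibody. Both groups were stained for 90 min with a Hoechst dye at 5 µg/ml and then sorted by flow cytometry on the red and blue emission of the dye. RNA of the sorted cells was labelled from its 3' end and hybridised to Affymetrix expression arrays, and the non-SP cells of the same 2 treatments make up the other 6 arrays. Levels are log2 values, on which a difference of 1 is a fold of 2, and levels of different genes on such arrays are not set against each other.

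EpCAM is a membrane glycoprotein of epithelial and carcinoma cells that takes part in cell contact. It can be cleaved in turn by a membrane metalloprotease and by the gamma-secretase complex, which frees an intracellular fragment that acts in the nucleus with FHL2 and beta-catenin, and MYC and cyclin D1 are among the genes placed downstream of it. The side population is defined by dye efflux through ABC transporters, above all ABCG2, and has been studied as a fraction of carcinoma lines in which drug-resistant or stem-like cells may be found. No genes, only samples, chose the comparison, and the question it addresses is which transcripts of the SP differ after exposure to the antibody.

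No gene passed the test. limma, with Benjamini-Hochberg adjustment over the 14653 genes tested, gave 0 genes at an adjusted p under 0.05 and a smallest adjusted p of 1. At an unadjusted p under 0.05 there were 199 genes, or 1.36% of those tested, 129 (0.88%) with the higher mean in antibody-treated SP and 70 (0.478%) with the lower. That split was 60 to 5 on the deposited values without quantile normalisation and 95 to 98 without treated replicate 3. The 3 treated arrays all lay above the 3 untreated arrays for 336 genes (2.29%) and all lay below them for 265 (1.81%). The means differed by at least 0.5 for 70 genes and by at least 1 for 1 gene, the nuclear noncoding RNA MALAT1, and the 5th and 95th percentiles of the differences were -0.21 and 0.25. These p-values rest on the spread between the arrays of a group, which limma moves for each gene toward a value shared by all genes. The number of arrays limits the precision. That spread includes the difference between 2 sets of arrays that cut across treatment, described below. With independent arrays and no true difference, a share of 0.05 would fall under the unadjusted threshold, and the 1.36% found is less than that. The 95% confidence interval of the difference lay within 1.5-fold either way for 10931 genes (74.6%) and within 2-fold for 14143 (96.5%), so that for most genes a 2-fold difference lies outside the interval.

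The 6 arrays divided into 2 sets that cut across treatment. The array carries probe sets for the 3' and the 5' end of ACTB, the beta-actin control, and their log2 ratio was 2.61, 2.68 and 1.03 in untreated replicates 1 to 3 and 3.14, 1.20 and 1.03 in antibody-treated replicates 1 to 3. Untreated 1 and 2 and treated 1 thus formed a high-ratio set, and untreated 3 and treated 2 and 3 a low-ratio set. The first principal component, with 60.6% of the variance, had scores of -25.1, -9.8 and -27.6 in the high-ratio set and 23.7, 11.8 and 27.1 in the low-ratio set. Arrays of the same set and different treatment correlated at 0.991 to 0.994 across genes, and arrays of the same treatment and different set at 0.974 to 0.985. The high-ratio set held 2 of the 3 untreated arrays and the low-ratio set 2 of the 3 treated arrays. A gene that differs between the sets therefore also shifts the treatment means. For most genes listed by array, the difference within the high-ratio and then the low-ratio set is given beside the difference of the means. The arrays within a set were not alike either. In the high-ratio set treated 1 had the lowest score, and in the low-ratio set treated 2 scored below untreated 3. A gene that follows these scores can differ within a set without any treatment difference, so within-set values are not corrected antibody differences. A gene whose groups do not overlap has the same sign within both sets by construction. Of the 173 genes named by rule, 63 had differences of opposite sign within the 2 sets. Over all genes tested, 50.4% had the same sign in both sets. The 173 include genes with no overlap, whose sign is fixed, so their share is not comparable with that of all genes. What part RNA quality, labelling or culture has in the sets was not tested.

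**Figure D1:**
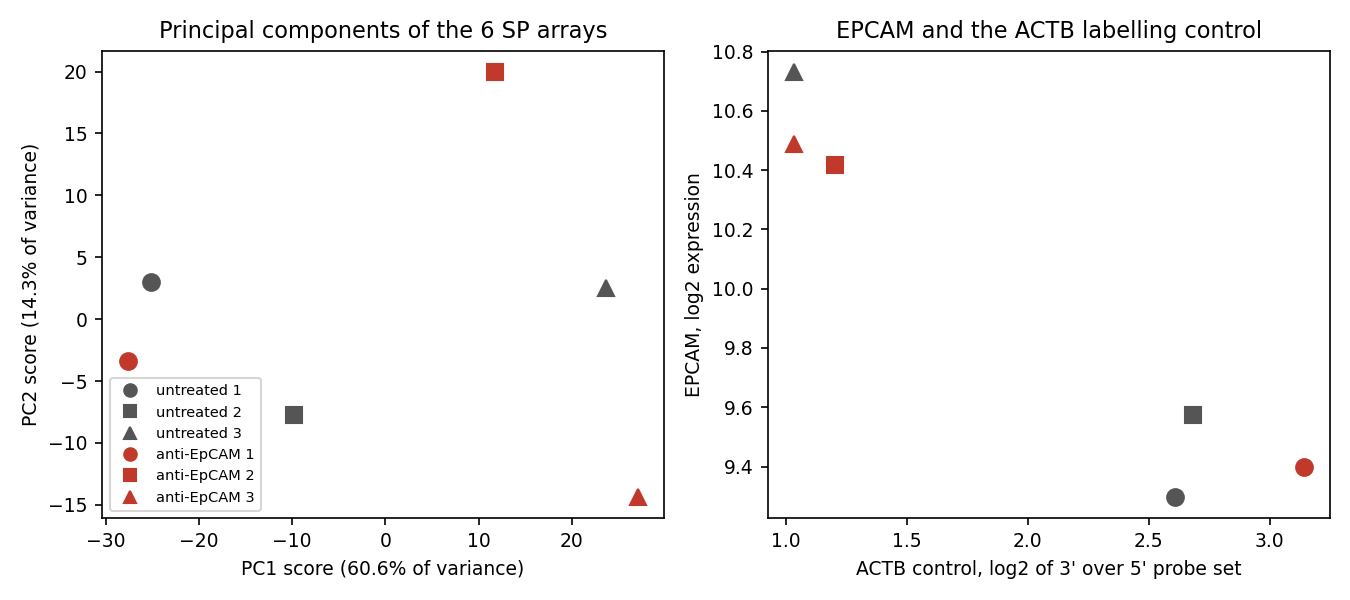
Left, scores of the 6 SP arrays on the first 2 principal components; right, the log2 level of EPCAM against the log2 ratio of the 3' to the 5' ACTB control probe set. Grey marks are untreated and red marks antibody-treated arrays, with circle, square and triangle for replicates 1, 2 and 3; untreated 1 and 2 and treated 1 fall on one side of both plots, and untreated 3 and treated 2 and 3 on the other.

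EPCAM itself, the transcript of the antibody's target, had log2 levels of 9.30, 9.58 and 10.73 in untreated SP and 9.40, 10.42 and 10.49 in antibody-treated SP. The groups overlapped, and the highest and the lowest array were both untreated. The means differed by 0.23 ± 0.42 (SE, n = 3 arrays a group), with a 95% interval of -0.75 to 1.21 (limma unadjusted p = 0.595, adjusted p = 1). Within the high-ratio set the treated array was 0.04 below the mean of the untreated arrays (-0.04). Within the low-ratio set the treated mean was below the untreated array as well (-0.28). The sign of the pooled difference was thus not that found within either set. The arrays of a set also differ by replicate number, so neither value is a corrected antibody difference. The 3 arrays with a high ACTB ratio held the 3 lowest EPCAM levels. In bulk RNA of a sorted fraction, a different share of cells with the transcript and a different amount per cell cannot be told apart.

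The partners of EpCAM and the enzymes that process it were represented by 24 of 26 listed genes, of which 0 passed. Their median difference was 0.038, against 0.001 over all genes tested, and 14 of the 24 had the higher mean after antibody. NCSTN, which encodes nicastrin, the substrate-receptor subunit of gamma-secretase, was the only member whose groups did not overlap. That share of the list is close to the 4.1% of all genes tested with no overlap. Its levels were 7.99, 8.0 and 7.90 in untreated SP and 8.10, 8.23 and 8.37 in treated SP, all 3 treated arrays being above all 3 untreated ones. The difference was 0.27 ± 0.12 (SE, n = 3 a group; limma unadjusted p = 0.0585, adjusted p = 1), with 0.10 within the high-ratio and 0.40 within the low-ratio set. BACE2, an aspartyl protease related to beta-secretase, read 9.38, 9.23 and 8.98 in untreated and 9.23, 8.97 and 8.74 in treated SP, with overlap and a difference of -0.22 (-0.08 and -0.13 within the sets). Its relative BACE1 differed by -0.11, and SPINT1, an inhibitor of the epithelial serine protease matriptase, by -0.17. In SPINT1, treated replicate 1 alone lay apart, at 6.58 against 7.08 to 7.17 in the other arrays.

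CD44, the hyaluronan receptor that shares membrane complexes with EpCAM, varied little. It read 12.84, 12.76 and 12.79 in untreated and 12.77, 12.87 and 12.89 in treated SP. The means differed by 0.05 with an interval of -0.21 to 0.30, the groups overlapped, and the differences within the sets were -0.03 and 0.09.

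The 2 genes most often placed downstream of EpCAM signalling had intervals on both sides of 0. MYC, a transcription factor for growth genes, had levels of 12.85, 12.76 and 12.89 in untreated SP and 12.77, 13.02 and 12.68 in treated SP. The treated arrays held both the highest and the lowest value, and the means differed by -0.01 with an interval of -0.32 to 0.30 (-0.04 and -0.04 within the sets). CCND1, which encodes the G1 cyclin D1, read 10.26, 10.09 and 10.67 against 10.18, 10.23 and 10.66. Replicate 3 was the highest array in either group, and the difference of the means was 0.02 with an interval of -0.44 to 0.48 (0.01 and -0.22 within the sets). Of the 16 listed targets of Wnt and beta-catenin signalling, 12 were tested, 0 passed, and the median difference was 0.063. The member of the list with the widest difference among those named, the growth factor BMP4, read 8.07, 8.47 and 9.59 against 7.91, 9.26 and 9.96. Its difference of 0.34 was smaller than the range within either group, and within the sets it was -0.36 and 0.02.

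**Figure D2:**
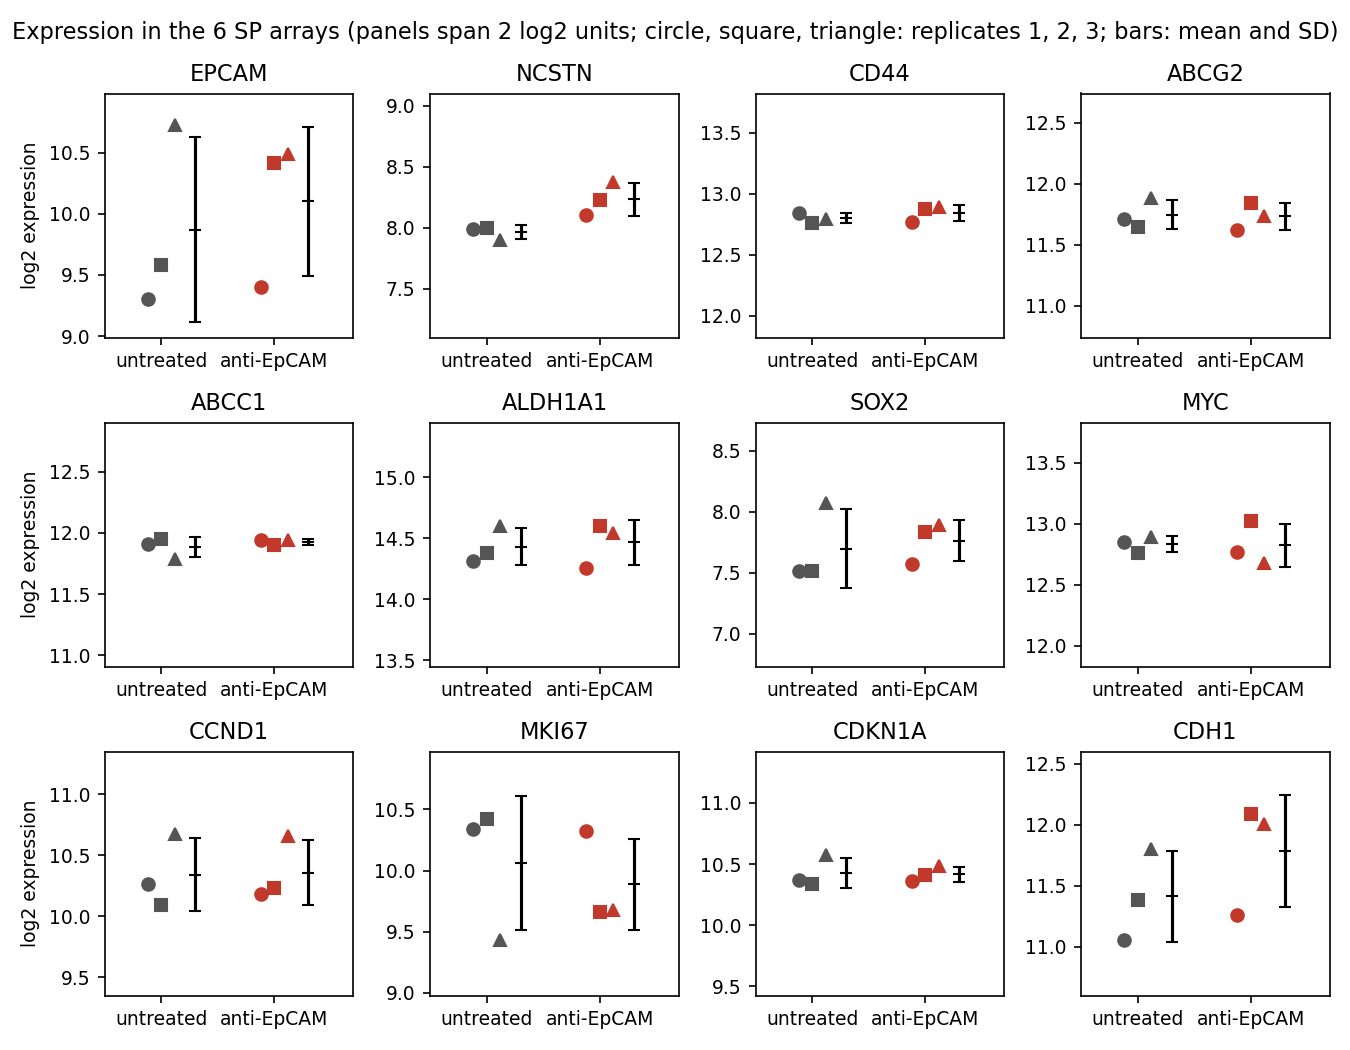
Log2 levels of 12 genes in the 3 untreated (grey) and 3 antibody-treated (red) SP arrays, with circle, square and triangle for replicates 1, 2 and 3 and black bars for the group mean ± SD (n = 3). Each panel spans the same range of log2 units, so the wide panels of EPCAM and MKI67 and the narrow ones of ABCC1 and CD44 can be compared, and NCSTN is the only gene of the 12 whose groups do not overlap.

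ABCG2 and the other ABC transporters named here had differences with intervals on both sides of 0. ABCG2, the pump that exports Hoechst dye, read 11.71, 11.65 and 11.88 in untreated SP and 11.62, 11.84 and 11.74 in treated SP. The lowest of the 6 arrays was treated and the highest untreated, and the means differed by -0.02 ± 0.13 (SE, n = 3 a group), with a 95% interval of -0.31 to 0.28 (-0.06 and -0.09 within the sets). The sort itself selects cells by this activity, so the level of ABCG2 inside the gate does not show how many cells entered it. ABCC1, a pump of glutathione conjugates, read 11.91, 11.95 and 11.79 against 11.94, 11.90 and 11.94, a difference of 0.04 with an interval of -0.22 to 0.31 (0.01 and 0.13 within the sets). ABCC4, a pump of cyclic nucleotides and prostaglandins, differed by 0.07 and the mitochondrial transporter ABCB10 by -0.10. Over the 12 of 14 listed drug efflux pumps that were tested, 0 passed, 3 had the higher mean after antibody and the median difference was -0.038. ABCB1, the multidrug pump P-glycoprotein, was below the filter on dim probe sets and has no test.

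Markers used for stem-like cells overlapped between the groups. ALDH1A1, a retinaldehyde-oxidising enzyme used as a stem cell marker in lung cancer, read 14.31, 14.38 and 14.60 in untreated SP and 14.26, 14.60 and 14.54 in treated SP, a difference of 0.04 (-0.08 and -0.02 within the sets). SOX2, a transcription factor of pluripotent and airway progenitor cells, read 7.51, 7.51 and 8.07 against 7.57, 7.83 and 7.89. Its low-ratio arrays were the 3 highest, and the difference was 0.07 with an interval of -0.36 to 0.50 (0.06 and -0.20 within the sets). ALDH3A1, another aldehyde dehydrogenase, read 11.74, 11.83 and 12.76 against 11.68, 12.42 and 13.23. The difference of 0.33 had an interval of -0.63 to 1.29 and was -0.10 and 0.06 within the sets. Of 21 listed markers, 16 were tested and 0 passed, with a median of 0.032. NANOG and PROM1, the gene of CD133, did not clear the filter, and no probe set was assigned to POU5F1 alone.

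Genes of the cell cycle had medians slightly below 0, and those medians changed sign within the sets, where replicate numbers also differ. For the G1/S and DNA replication genes, 34 of 35 were tested, 0 passed, 13 had the higher mean after antibody and the median was -0.038; it was 0.073 within the high-ratio and 0.018 within the low-ratio set. The corresponding median of the 32 G2/M and mitosis genes was -0.03, and 0.024 and 0.095 within the sets, with 0 passing. MKI67, the proliferation antigen Ki-67, read 10.34, 10.42 and 9.43 in untreated SP and 10.32, 9.66 and 9.68 in treated SP. The 3 high-ratio arrays lay above the 3 low-ratio arrays, whichever the treatment. The means differed by -0.18 ± 0.30 (SE, n = 3 a group), with -0.06 and 0.24 within the sets. Of the other 3 probe sets for MKI67, 2 had a difference of the opposite sign. CDKN1A, the p53 target that encodes the inhibitor p21, read 10.37, 10.34 and 10.57 against 10.36, 10.41 and 10.48, a difference of -0.01 with an interval of -0.29 to 0.27 (0.01 and -0.12 within the sets). Of the p53 targets 23 of 26 were tested, 0 passed, and the median was -0.006. TNFRSF10B, a death receptor gene, was their only member with no overlap, at a difference of -0.07. That share too is close to the 4.1% of all genes tested. In the replication-dependent histone genes, which are transcribed in S phase, 23 of 42 were tested and 0 passed, and the median of -0.101 was the lowest of the 38 lists. One member of that list by symbol, the testis linker histone gene H1-6, had all treated arrays above all untreated ones, at 5.88, 6.40 and 5.86 against 5.38, 5.65 and 5.56 (difference 0.52, limma unadjusted p = 0.0199, adjusted p = 1), with 0.36 and 0.57 within the sets. The other probe set for H1-6 had a difference of the opposite sign.

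Among the BCL2 family, which sets the threshold for apoptosis, 17 of 18 genes were tested, 0 passed and the median was 0.005. BCL2, its founding survival gene, was below untreated in every treated array. It read 6.29, 6.51 and 6.37 in untreated SP and 6.14, 6.15 and 6.06 in treated SP, a difference of -0.27 ± 0.12 (SE, n = 3 a group; limma unadjusted p = 0.0515, adjusted p = 1), with -0.26 within either set. The other probe set for BCL2 had a difference of the opposite sign. BAD, a pro-apoptotic member, differed by 0.19, with overlap.

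Epithelial and mesenchymal genes gave no passing gene in either direction. CDH1, which encodes E-cadherin, read 11.06, 11.38 and 11.80 against 11.26, 12.09 and 12.01, a difference of 0.38 with an interval of -0.24 to 1.00. It was 0.05 within the high-ratio and 0.25 within the low-ratio set, and the groups overlapped. The 16 of 23 epithelial junction genes and keratins tested had a median of 0.03, and the 15 of 20 mesenchymal genes and EMT factors a median of -0.013. FN1, the matrix glycoprotein fibronectin, differed by 0.19 (-0.08 and 0.17 within the sets) and SNAI1, a repressor of E-cadherin, by -0.20 (-0.78 and 0.18), both with overlap. Collagens, laminins and other matrix genes had a median of -0.007 over 27 of 33 genes, integrin subunits 0.009 over 17 of 21, and TGF-beta targets 0.007 over 16 of 18, with 0 passing in each. Ligands of the EGF receptor and feedback genes of ERK signalling had a median of 0.006 over 22 of 24 genes, and Notch pathway genes -0.017 over 17 of 18, again with 0 passing. In the Notch list the receptor gene NOTCH3 differed by 0.30, NOTCH1 by -0.24 and the target HEY2 by -0.42, and the groups overlapped in all 3. Within the sets NOTCH1 differed by 0.02 and -0.31. NOTCH3 and NOTCH1 each had 1 other probe set, with a difference of the opposite sign.

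Immune and inflammatory genes are of interest since the cells met an antibody. CD274, which encodes the checkpoint ligand PD-L1, had all treated arrays above all untreated ones, at 6.19, 6.10 and 5.99 against 5.62, 5.86 and 5.88. The difference was 0.31 ± 0.13 (SE, n = 3 a group; limma unadjusted p = 0.0449, adjusted p = 1), with 0.45 within the high-ratio and 0.17 within the low-ratio set. The other probe set for CD274 had a difference of the opposite sign. The other antigen presentation genes overlapped: HLA-C, a class I heavy chain gene, differed by 0.34 with an interval of -0.38 to 1.05, and HLA-F by 0.32. The other 2 probe sets for HLA-F had differences of the opposite sign. The list had a median of 0.061 over 16 of 17 genes and 0 passed.

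Interferon-stimulated genes had a median of -0.1 over 20 of 28 genes, and 0 passed. The median was -0.003 within the high-ratio and -0.026 within the low-ratio set. IFI6, a mitochondrial survival protein induced by interferon, read 7.82, 7.86 and 7.82 in untreated SP and 7.62, 7.73 and 7.36 in treated SP, every treated array being lower. The difference was -0.27, with -0.22 and -0.27 within the sets. MX2, an antiviral GTPase, was lower in every treated array as well, with a difference of -0.18 that was -0.02 on the deposited values without quantile normalisation. OAS2, an RNA-sensing antiviral enzyme, read 5.35, 6.24 and 5.41 against 5.63, 6.16 and 6.47. Its groups overlapped, and the difference of 0.42 had an interval of -0.26 to 1.10 and was -0.16 within the high-ratio and 0.90 within the low-ratio set. NF-kB targets and chemokines had a median of -0.006 over 20 of 22 genes with 0 passing; TNFAIP3, a feedback inhibitor of the pathway, differed by -0.29 (-0.01 and -0.36 within the sets) and the pathway subunit NFKB2 by 0.24 (0.04 and 0.32), with overlap in both. The immediate-early genes, which respond within an hour to many stimuli and were sampled here after 48 h, had a median of -0.002 over 19 of 21 genes, also with 0 passing.

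Metabolic and stress lists stayed close to the median of all genes, and 0 members passed in any of them. The medians were -0.031 for hypoxia and glycolysis genes (32 of 33 tested), 0.02 for NRF2 targets (28 of 30), -0.048 for ATF4 and amino acid response genes (29 of 30) and 0.033 for endoplasmic reticulum chaperones (20 of 21). Heat shock genes had a median of 0.003 (17 of 21), cholesterol and fatty acid synthesis genes -0.029 (25 of 32), and aryl hydrocarbon receptor targets -0.03 (8 of 9). For lysosome genes the median was -0.001 (24 of 28), for mitochondrial complex I and IV subunits -0.053 (43 of 48) and for cytosolic ribosomal protein genes -0.017 (58 of 60). In these lists 5 members had groups with no overlap, a smaller share than the 4.1% of all genes tested. Among the 5 were the phosphofructokinase gene PFKL (difference 0.17), the aldolase gene ALDOC (-0.22) and the complex I gene NDUFA2 (-0.14). NDUFA2 had the opposite sign in its other probe set. The others were the aldo-keto reductase gene AKR1C2 (0.02) and the ribosomal protein gene RPL9 (0.04). HSP90B1, the chaperone GRP94, had the widest difference among the chaperones named, at 10.45, 10.29 and 10.22 against 10.61, 10.08 and 9.15. Treated replicate 3 was the lowest array and treated replicate 1 the highest, and the difference was -0.38 with an interval of -1.14 to 0.39, and 0.24 within the high-ratio and -0.61 within the low-ratio set.

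SFTPB, which encodes surfactant protein B of alveolar type II cells, was lower in every treated array, at 7.44, 7.51 and 7.19 against 7.78, 7.68 and 7.75. The difference was -0.36 ± 0.13 (SE, n = 3 a group; limma unadjusted p = 0.0248, adjusted p = 1), with -0.30 and -0.40 within the sets. Of the other 2 probe sets for SFTPB, 1 had a difference of the opposite sign. The other named type II genes did not share it: SFTPC differed by 0.05 and NKX2-1, the lung lineage factor, by 0.25, and the list had a median of 0.004 over 10 of 16 genes with 0 passing.

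Markers of A549 and of other cells were set beside these values. The 10 epithelial identity genes of A549 were all tested. Their mean level was 12.36 to 12.67 in untreated and 12.33 to 12.70 in treated arrays, and the median difference was 0.02. Of the fibroblast markers 7 of 12 passed the filter (median 0.108, mean level 6.88 to 7.16 in untreated and 6.83 to 7.28 in treated arrays), of the leukocyte markers 6 of 15 (median -0.008, mean level 6.18 to 6.33 and 6.15 to 6.32) and of the endothelial markers 3 of 10 (median 0.056, mean level 6.56 to 6.71 and 6.58 to 6.78). The pan-leukocyte gene PTPRC, the fibroblast gene FAP and the endothelial gene VWF were among the markers not above the filter. The myeloid gene AIF1, with a difference of -0.15 and the opposite sign in 1 of 2 other probe sets, was the only marker of other cells with no overlap. Over all genes tested, 4.1% had no overlap. In these 4 lists 0 members passed the test, and their part in any difference was not tested.

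Across the 38 lists, 35 had a median within 0.1 of 0. Of the 621 tested genes on the 34 lists given gene by gene, 4 had all treated arrays above and 8 all treated arrays below the untreated ones, that is 0.644% and 1.29% against the 2.29% and 1.81% over all genes. The highest list median, 0.185, was that of plasma proteins, secreted liver-type genes that A549 transcribes (11 of 15 tested, 0 passing). It was -0.298 and -0.107 within the sets, values that are not corrected for replicate number. The other 4 lists were defined by a pattern in the symbol: the ribosomal protein and histone genes given above, the zinc finger genes named ZNF, with a median of -0.025 over 338 genes and 4 above and 15 below, and the long noncoding RNA genes, with a median of -0.003 over 757 genes and 20 above and 24 below. In both, 0 genes passed. The sign of a median this close to 0 depends on the scaling. Over all genes the median difference was 0.001, with 50.3% of genes higher, after quantile normalisation of the 6 arrays, 0.077 with 75.3% higher on the deposited values, and -0.061 with 32.3% higher after median centring.

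**Figure D3:**
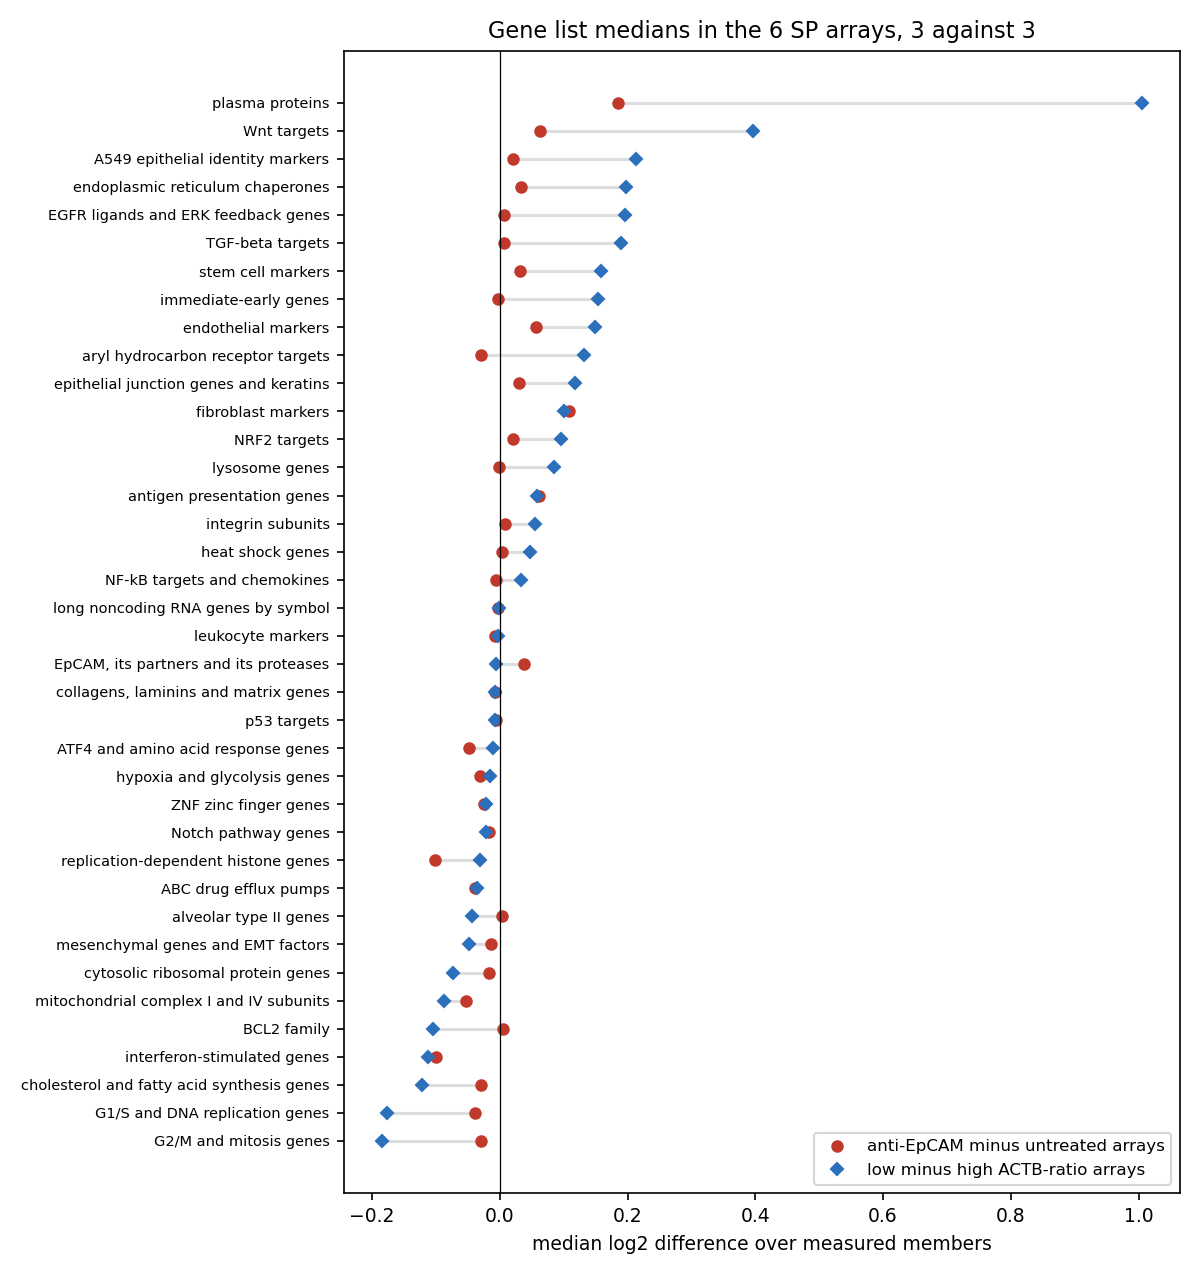
Median log2 difference over the measured members of each of 38 gene lists in the 6 SP arrays. Red circles give antibody-treated minus untreated arrays and blue diamonds the low-ratio minus the high-ratio arrays, 3 against 3 in each; the red circles lie between -0.101 and 0.185, and plasma proteins reach 1.005 for the blue diamonds.

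The genes with the smallest unadjusted p whose groups did not overlap and whose means differed by at least 0.5, 10 in each direction, were dim. Their mean levels lay between 5.40 and 7.13, against a median of 8.44 over all genes, and 19 of the 20 were below 7. Since the groups of these genes do not overlap by choice, their sign is the same within both array sets by construction. The unadjusted p ran from 0.00106 to 0.0153 and the limma adjusted p was 1 for all 20.

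The largest difference upward was that of TRPM2-AS, an antisense RNA of a cation channel gene, with 4.76, 5.44 and 4.85 in untreated SP and 5.78, 5.82 and 6.30 in treated SP. Every treated array was above every untreated one, and the difference was 0.95 ± 0.22 (SE, n = 3 a group). It was 0.68 within the high-ratio and 1.21 within the low-ratio set. The intergenic noncoding RNA LINC00330 read 4.82, 5.15 and 5.19 against 5.62, 5.76 and 5.86, a difference of 0.69. ATCAY, which encodes the neuronal protein caytaxin, was the brightest of the 20, at 6.91, 6.86 and 6.83 against 7.41, 7.20 and 7.58. GLRA2, a glycine receptor subunit gene, read 5.62, 5.79 and 5.98 against 6.22, 6.36 and 6.39, and POMK, a kinase that acts on the sugar chain of dystroglycan, 5.21, 5.34 and 5.37 against 5.93, 5.83 and 5.73. Each of these 3 differed by 0.53. The other genes with higher means were LINC02064, LAMA5-AS1, PRKAR1B-AS1, GTSF1L and SNED1, with differences of 0.53 to 0.65; the other probe set for SNED1 had the opposite sign.

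On the lower side, TTN, the giant sarcomere protein gene, read 5.75, 6.00 and 5.75 in untreated SP and 4.95, 5.28 and 5.15 in treated SP. The difference was -0.71 ± 0.14 (SE, n = 3 a group), and it was -0.92 and -0.53 within the sets. LINC03002 had the smallest unadjusted p of all genes, 0.00106, with 5.64, 5.85 and 5.73 against 5.00, 5.11 and 5.22. PRLH, which encodes prolactin-releasing peptide, read 6.13, 6.38 and 6.20 against 5.62, 5.89 and 5.59. GJA3, a lens connexin gene, read 5.92, 5.80 and 5.74 against 5.08, 5.37 and 5.44, with -0.78 and -0.33 within the sets. ANKRD24 differed by -0.77, with treated replicate 1 at 4.64 and the other treated arrays at 5.54 and 5.37, so that the value was -1.45 within the high-ratio and -0.22 within the low-ratio set. The remaining genes, GPR45, TPTE2P5, ARMCX1, LINC02076 and LINC00922, differed by -0.51 to -0.70. Dim probe sets vary more: the median absolute difference was 0.142 over the 1856 genes with a mean level below 6 and 0.0398 over the 899 genes above 12, and 47 of the 70 genes that differed by at least 0.5 had a mean level below 6.

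**Figure D4:**
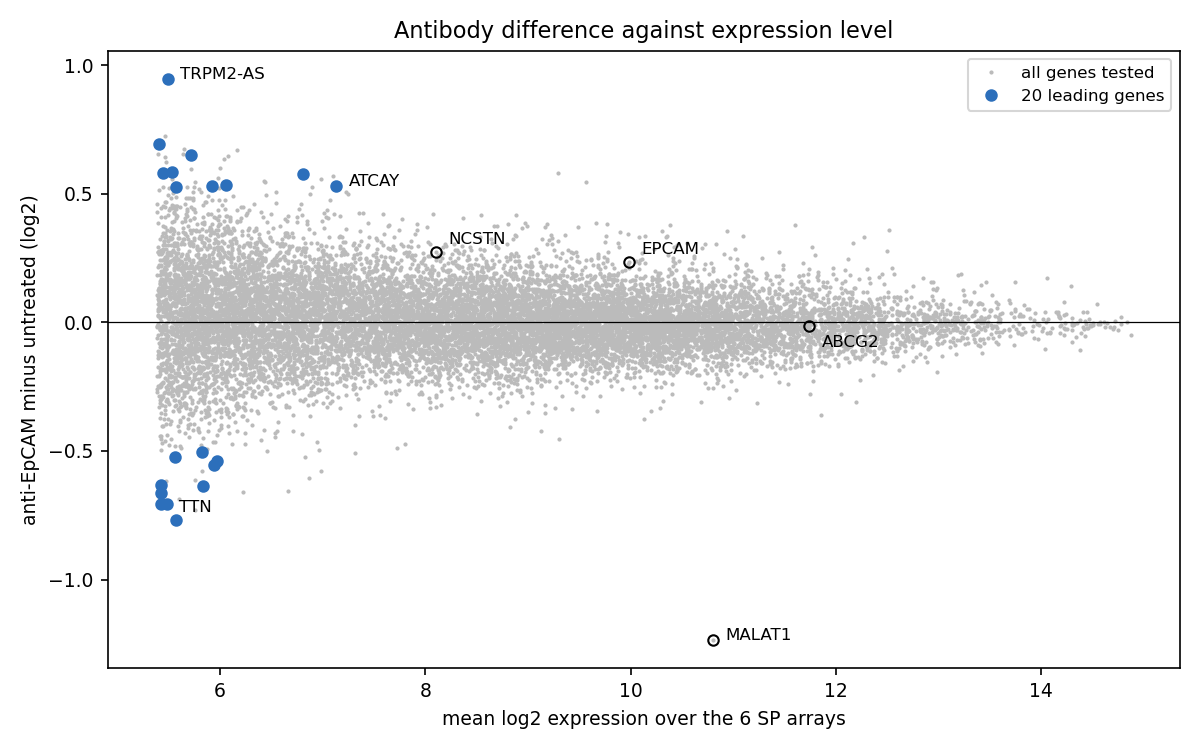
Difference of the group means (antibody-treated minus untreated, log2) against the mean log2 level over the 6 SP arrays for all 14653 genes tested. Blue points are the 20 leading genes and open circles other named genes; the spread narrows as the level rises, and MALAT1 lies alone at -1.23.

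MALAT1 had the largest difference of all genes, -1.23, and its groups overlapped. Its levels were 11.55, 12.11 and 10.60 in untreated SP and 11.67, 9.58 and 9.31 in treated SP. Treated replicate 1 lay inside the untreated range, and the 3 low-ratio arrays were the 3 lowest. The difference was -0.16 within the high-ratio and -1.16 within the low-ratio set (limma unadjusted p = 0.0899, adjusted p = 1). The other 10 probe sets for the gene gave 0 differences of the opposite sign.

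The non-SP arrays of the same line gave a second view of the antibody. limma called 0 genes there at an adjusted p under 0.05 (248 at an unadjusted p under 0.05), and the test of whether the antibody difference was unlike in SP and non-SP cells called 0 genes as well (245 at an unadjusted p under 0.05). All 20 leading genes of the SP had the same sign in non-SP cells, against 92.5% of the 601 genes whose SP groups did not overlap and 75.1% of all genes. For 12 of the 20 the non-SP groups did not overlap either, in the same direction, against 24.6% of the 601. The 20 were also picked by p and a difference of at least 0.5, and the 601 by no overlap alone. Their shares are therefore not like for like. TTN differed by -0.42 in non-SP and by -0.71 in SP, TRPM2-AS by 0.81 and 0.95, and EPCAM by 0.30 and 0.23. No array is shared by the 2 comparisons, but SP and non-SP arrays of one treatment and number deviate together, and the labels do not say whether they came from one sort, so that the second comparison is not independent of the first.

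More genes separated the 2 array sets than separated the treatments. The sets did not overlap for 5283 genes (36.1%), against 601 (4.1%) for treatment, and differed by at least 0.5 for 1581 genes against 70. These sets are a description of the arrays and no test was made on them, and the genes named next were picked as the ones of largest difference after their values were seen. NTS, which encodes the peptide neurotensin, read 8.61, 11.76 and 8.42 in the high-ratio set (untreated 1, untreated 2, treated 1) and 13.26, 12.06 and 13.26 in the low-ratio set (untreated 3, treated 2, treated 3). Replicate 1 gave near-equal values in both treatments, as did replicate 3, and both replicates 2 lay between. FGG, the fibrinogen gamma chain gene, read 9.40, 10.80 and 9.15 against 12.56, 12.07 and 12.55, and FGB, the beta chain gene, 9.04, 10.84 and 8.82 against 12.20, 11.73 and 12.17. Of the plasma protein list 7 of 11 genes were separate and higher in the low-ratio set, with a median of 1.005; over all genes 17.1% were separate and higher and 18.9% separate and lower.

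Other genes higher in the low-ratio set were ID4, an inhibitor of helix-loop-helix factors (difference 2.94), ADH6, an alcohol dehydrogenase gene (2.89), and the receptor tyrosine kinase gene KIT (2.28). Genes lower in it were KCNMA1, a calcium-activated potassium channel gene (-2.39), GREM1, an antagonist of bone morphogenetic proteins (-2.28), and PLAU, the urokinase gene (-1.54). The G1/S list had 16 of 34 genes separate and lower with a median of -0.176, the G2/M list 14 of 32 with -0.184, and the ribosomal protein list 26 of 58 with -0.073, against the 18.9% of all genes.

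**Figure D5:**
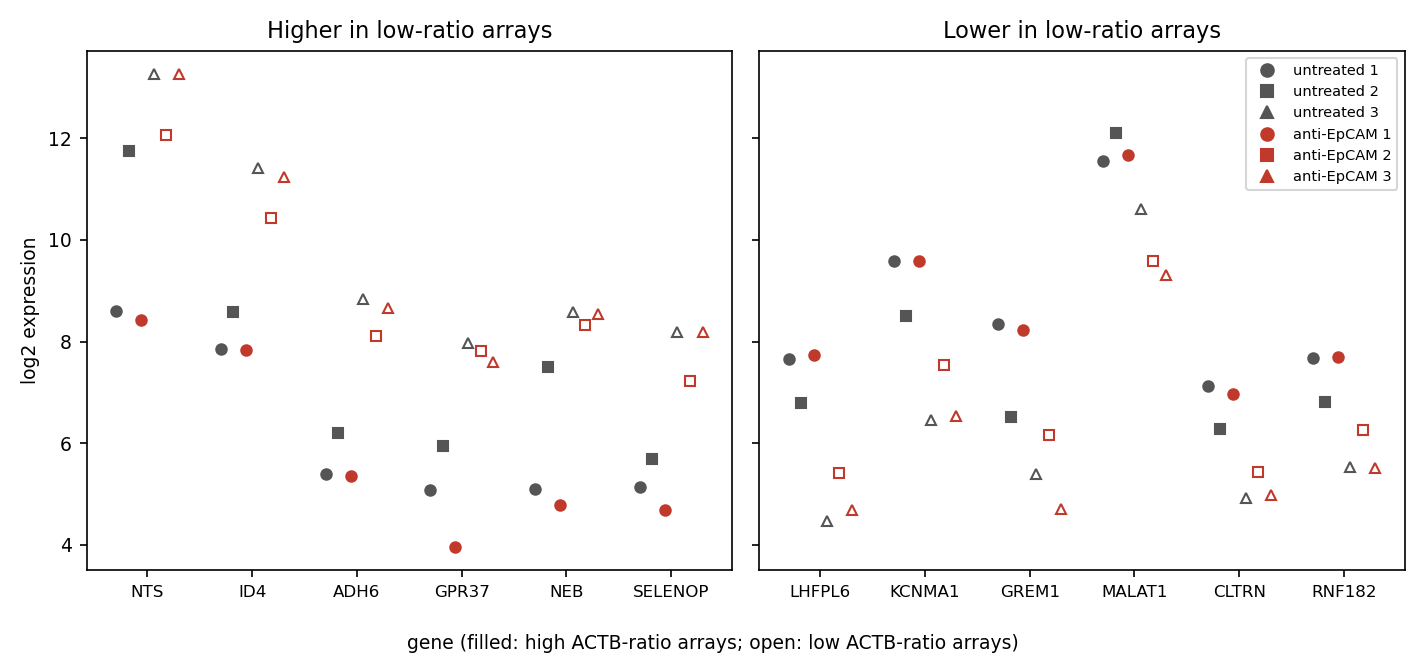
Log2 levels in the 6 SP arrays of the 6 genes with the largest difference in each direction between the low-ratio and high-ratio array sets. Grey marks are untreated and red marks antibody-treated arrays, circle, square and triangle are replicates 1, 2 and 3, and filled marks are high-ratio and open marks low-ratio arrays; for NTS, replicates 1 lie at 8.61 and 8.42 and replicates 3 at 13.26 and 13.26 in untreated and treated cells.

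The ACTB ratio and these genes did not go together in every array of the line. In the non-SP arrays the ACTB ratio was 2.86, 2.95 and 1.39 in untreated replicates 1 to 3 and 1.28, 0.94 and 3.13 in treated replicates 1 to 3, so that treated 1 and 3 had the reverse of the ratios seen in SP. NTS in those arrays read 8.12, 11.91 and 13.25 in untreated and 8.20, 12.28 and 13.25 in treated cells, that is, by replicate number as in SP and not by the ratio. LHFPL6, the gene with the largest difference the other way, read 7.66, 6.79 and 4.47 in untreated and 7.74, 5.42 and 4.69 in treated SP, and 7.95, 7.10 and 4.86 and 8.11, 5.96 and 5.32 in untreated and treated non-SP cells. MALAT1 read 13.05, 12.53 and 11.72 in untreated and 12.10, 11.88 and 9.13 in treated non-SP cells, with replicate 3 the lowest and replicate 1 the highest in both treatments; treated replicate 3, the lowest, had the highest ACTB ratio of those arrays.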

How the data were processed

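Expression was measured on Affymetrix arrays in 12 samples, of which the 6 SP arrays make up the comparison described. The submitters' processing notes name RMA, and the deposited values are log2 levels of probe sets; the version of RMA and which arrays were processed together are not given in the sources used here. Array medians of the deposited log2 values were 5.68, 5.82 and 6.14 in untreated and 5.60, 6.22 and 6.24 in treated SP, and the 6 arrays were therefore quantile normalised together.

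Tests left out 62 control probe sets. Of 54613 others, 41091 carried 1 gene symbol in the platform's probe table, 1801 several and 11721 none, and 99.9% of symbols were matched to current ones. Probe sets with 1 symbol and a mean above the 40th percentile (5.39) were kept, and the one with the highest mean stood for its gene, which left 14653 genes of 19775. Groups were compared with limma 3.58.1 in R 4.3.3 (lmFit and eBayes, two-sided, no covariate) with Benjamini-Hochberg adjustment, passing at 0.05; the code was tested on simulated data. The antibody difference in SP was set against that in non-SP through within-number differences of SP and non-SP arrays.

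The rule for naming genes took, in each direction, 10 genes: passing ones first, then those of smallest unadjusted p among genes whose groups did not overlap and whose difference was at least 0.5. It added up to 4 members of smallest p from each of 38 lists and 14 fixed genes. Members, lists and rule were chosen with earlier results of these data known. Alternatives changed the scaling, filter, probe set choice, variance model, covariates, replicate block and arrays left out. Genome positions and sequences are not given, since no build is named and the values are tied to probe sets.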

Additional observations from a re-analysis of the deposited data

How the results depend on the processing

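All 18 alternatives of the SP comparison that gave a test called 0 genes with limma at an adjusted p under 0.05. The 18 include leaving out each replicate in turn, and the probe sets without a single gene symbol, which are other features. The smallest limma adjusted p was 0.915, without anti-EpCAM replicate 1. The count at an unadjusted p under 0.05, 199 genes, ran from 65 on the deposited values to 628 with a covariate for the GAPDH control ratio; it was 115 after median centring, 127 with a variance trend, 476 without the filter, 353 without untreated replicate 3 and 456 without anti-EpCAM replicate 1. With the replicate number as a block there were 0 passing genes and 474 at an unadjusted p under 0.05. Treated and untreated arrays of one number deviated from their group means with r of 0.69, -0.18 and 0.62 for numbers 1 to 3. Across numbers, r was -0.74 for treated 1 with untreated 3, -0.63 for treated 3 with untreated 1, and 0.31 for treated 2 with untreated 3. By this measure numbers 1 and 3 went together across treatment and number 2 did not. The main test used no pairing, and the replicate block is the alternative that does. Added after seeing the data, the ACTB ratio as a covariate gave 355 such genes and the array set as a block 412, again with 0 passing, and 5665 probe sets without a single gene symbol gave 0 passing and 97. In non-SP cells the alternatives also gave 0 passing genes, with 835 at an unadjusted p under 0.05 under the replicate block, and the test of the difference between fractions gave 0 passing genes under each alternative. Of the 173 named genes, 90 changed sign in at least 1 of 19 settings, including the values within 1 array set. List medians ran from -0.298 to 0.543 over the settings. Precision is limited by the number of arrays and, for dim genes, by signal near background.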

Other observations

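Among genes with a mean level above 8, where the arrays vary less, 81 of 8259 had all treated SP arrays above and 105 all treated arrays below the untreated ones, and 6 had an unadjusted p under 0.05 (limma; adjusted p = 1 for those named here). Over all genes tested these shares were 2.29%, 1.81% and 1.36%, in each case larger than among the brighter genes. The share by p is limited by the variance model, which had no trend with level and moved each gene toward a shared value. MREG, a brighter gene with SDs of 0.045 and 0.052 in untreated and treated SP, had an SE of 0.11. The genes that follow were chosen as those of smallest p after their values were seen. They were taken from the genes with no overlap, so their sign is the same within both array sets by construction. PAPSS2, which makes the sulfate donor for sulfotransferases and proteoglycan synthesis, read 11.51, 11.28 and 11.38 in untreated and 11.07, 11.19 and 10.96 in treated SP, a difference of -0.31 that was -0.32 within the high-ratio and -0.30 within the low-ratio array set. A further 2 probe sets read PAPSS2, and in 1 of them the treated mean was the higher. CADM1, a cell adhesion molecule of epithelia, read 9.78, 9.74 and 9.70 against 10.06, 10.15 and 9.89, a difference of 0.29 that was 0.30 and 0.32 within the sets. NOB1, an endonuclease that matures the small ribosomal subunit, read 9.95, 9.79 and 10.18 against 10.23, 10.24 and 10.47, and VMP1, a membrane protein of autophagy, 9.32, 9.58 and 9.12 against 9.02, 9.01 and 8.94. NOB1 differed by 0.34 (0.36 and 0.17 within the sets) and VMP1 by -0.35 (-0.44 and -0.14). The pseudogene NACA4P, whose probe set may also read its parent gene, was at 12.06, 12.01 and 12.04 against 11.68, 11.54 and 11.80, a difference of -0.36 (-0.35 and -0.37 within the sets). In non-SP cells the same 5 genes differed by -0.37, 0.18, 0.28, -0.19 and -0.27.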
